A study of Mus musculus with 5 samples.

Results

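Cdhr1, Opn1sw and Cngb1 encode proteins of the photoreceptor outer segment, the stack of light-sensing membrane discs that rods and cones build on a modified cilium. They were followed by the 3 probes whose only gene symbol in the platform annotation is Cdhr1, Cngb1 or Opn1sw, of 21446 probes and 8944 named genes on the array. Each gene had 1 such probe (probe numbers 15628, 1279 and 21981 for Cdhr1, Cngb1 and Opn1sw), and each probe had a value on all 5 arrays. The members therefore stand for themselves and give no sample of outer segment genes as a class.

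Total RNA from retina of adult C57/B6 mice, labelled with Cy5, was hybridised together with total RNA from postnatal day 1 cortex of Swiss-Webster mice, labelled with Cy3, to 5 two-colour Agilent arrays, so as to measure how far expression values vary within the platform. Each tissue was a single pool of samples, aliquoted for every array, and the labels describe the arrays as technical repeats. Tissue, age, strain and dye thus differ together and cannot be told apart, and the p-values below measure the spread between repeated hybridisations of a pair of pools and not between mice. The deposited values are log ratios whose base and direction are not stated. They were read as log10, retina over cortex, which is likely from the limits of the values, the titles and the dyes, and are given here on the log2 scale.

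In the dark, cyclic GMP holds the cation channel of the outer segment open. Light absorbed by an opsin activates transducin and then a phosphodiesterase, cyclic GMP falls and the channel closes. Opn1sw encodes the short-wave opsin of cones, so it stands at the start of this cascade, and Cngb1 encodes the beta subunit of the rod channel at its end. The Cngb1 gene also gives rise to soluble glutamic-acid-rich proteins (GARPs) of rods, and the sources used here do not say which transcripts the probe detects. Cdhr1, also named Pcdh21, is a cadherin-related membrane protein at the base of the outer segment, where new discs form, and loss of the gene causes photoreceptor degeneration. CNGB1 is a retinitis pigmentosa gene in humans.

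The 3 genes share a tissue and a cell compartment, and their promoters are shown to compare the letters in front of genes whose ratios all lie on the retina side. The windows run from 250 bases before to 50 bases after the start of the gene, 5′ to 3′ on the strand of the gene, and come from RefSeq with build GRCm38.p6. Capitals mark every match, on either strand, of TAATCC (the core of sites bound by CRX and OTX2), TGCTGA (the half-site of NRL) or AGGTCA (the half-site of many nuclear receptors).

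Cdhr1, chr14:37098298-37098597, minus strand: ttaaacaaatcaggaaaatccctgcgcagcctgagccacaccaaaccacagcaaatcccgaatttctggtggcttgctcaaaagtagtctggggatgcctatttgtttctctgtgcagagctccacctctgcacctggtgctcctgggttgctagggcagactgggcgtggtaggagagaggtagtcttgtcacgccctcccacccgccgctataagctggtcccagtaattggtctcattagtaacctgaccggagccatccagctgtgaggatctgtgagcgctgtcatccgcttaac

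Opn1sw, chr6:29380464-29380763, minus strand: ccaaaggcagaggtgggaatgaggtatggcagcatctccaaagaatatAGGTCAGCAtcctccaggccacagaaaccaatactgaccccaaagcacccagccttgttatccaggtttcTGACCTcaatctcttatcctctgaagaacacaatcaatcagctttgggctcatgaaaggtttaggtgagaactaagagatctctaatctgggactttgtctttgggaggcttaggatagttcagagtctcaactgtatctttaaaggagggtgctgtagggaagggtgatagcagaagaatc

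Cngb1, chr8:95306536-95306835, minus strand: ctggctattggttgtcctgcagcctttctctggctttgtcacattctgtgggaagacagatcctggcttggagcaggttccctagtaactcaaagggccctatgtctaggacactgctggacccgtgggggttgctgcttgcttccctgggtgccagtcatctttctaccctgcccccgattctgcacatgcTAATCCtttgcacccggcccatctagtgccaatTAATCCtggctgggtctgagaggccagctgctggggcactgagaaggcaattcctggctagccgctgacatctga

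The 3 windows held different motifs. Cngb1 had 2 copies of TAATCC, beginning at -58 and -25 from the start, while 7.06% of 32851 promoter windows of the same length hold this motif on either strand. Opn1sw had AGGTCA at -202 and its reverse complement at -132, which 16.3% of all windows hold. The first of these overlaps the only TGCTGA match, a reverse complement at -199, a motif present in 19.5% of all windows. Cdhr1 matched none of these 3 motifs. The short E-box CANNTG occurred 2 times in Cdhr1, 1 time in Opn1sw and 3 times in Cngb1, and in 72.3% of all windows, whereas GGGCGG (35.7% of all windows) and TATAAA (13.6%) matched none of the 3 windows. Among the 7 measured genes of the disc and membrane list described below, the promoter of 1, Mak, held TAATCC. A match describes these letters only, and nothing here measured binding.

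Cdhr1, the structural member, had the highest mean ratio of all probes tested. Its log2 ratio of retina over cortex was 4.39, 4.28, 4.31, 4.29 and 4.24 on arrays 1 to 5, that is, 21.0-, 19.4-, 19.8-, 19.6- and 18.9-fold. All 5 arrays lay within 0.15 log2 of each other and far above 2-fold. The mean was 4.30 ± 0.05 (SD, n = 5 arrays), or 19.7-fold higher in retina with a 95% interval of 18.8 to 20.8 from limma, and the test against a minimum of 2-fold gave an adjusted p of 2.84e-07 in limma.

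Cdhr1 ranked first on arrays 2, 4 and 5. On array 3 a single probe read above it, and on array 1 a group of 6 probes did. None of these 7 readings recurred: on the other 4 arrays the highest value among those probes was 1.31 log2. The 6 on array 1 included Syde1, Thnsl2 and Cd28, named after their values were seen, which stood at the upper end of the deposited scale. The highest deposited value of Cdhr1 itself, 1.32 log10 on array 1, was clear of the limit of 2 at which deposited values end.

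Opn1sw, the light receptor, came next. Its log2 ratio was 3.36, 3.14, 3.26, 3.30 and 3.34 on arrays 1 to 5, with array 2 the lowest. No array was below 8.83-fold. The mean of 3.28 ± 0.09 (SD, n = 5) corresponds to 9.72-fold (95% interval 9.09 to 10.4), and the adjusted p of limma's 2-fold test was 6.33e-07. Opn1sw ranked 19 of 20282 probes tested by mean ratio, 4 of the 18 above it having no single gene symbol, and between 12 and 28 on single arrays. Only a small share of mouse photoreceptors are cones. Since the RNA came from whole tissue, a higher ratio cannot be divided into more cells of a type and more RNA per cell, for this gene or the others.

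Cngb1, the channel subunit, was the most variable of the 3 on the ratios as deposited. Its log2 ratio was 2.65, 2.87, 2.96, 3.25 and 3.14 on arrays 1 to 5. Array 1 was lowest, at 6.29-fold, and array 4 highest, at 9.51-fold. The mean was 2.97 ± 0.23 (SD, n = 5), or 7.85-fold with a 95% interval of 6.73 to 9.16, and limma's 2-fold test gave an adjusted p of 1.60e-05. Cngb1 ranked 33 of 20282 by mean ratio and between 22 and 61 on single arrays.

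**Figure D1:**
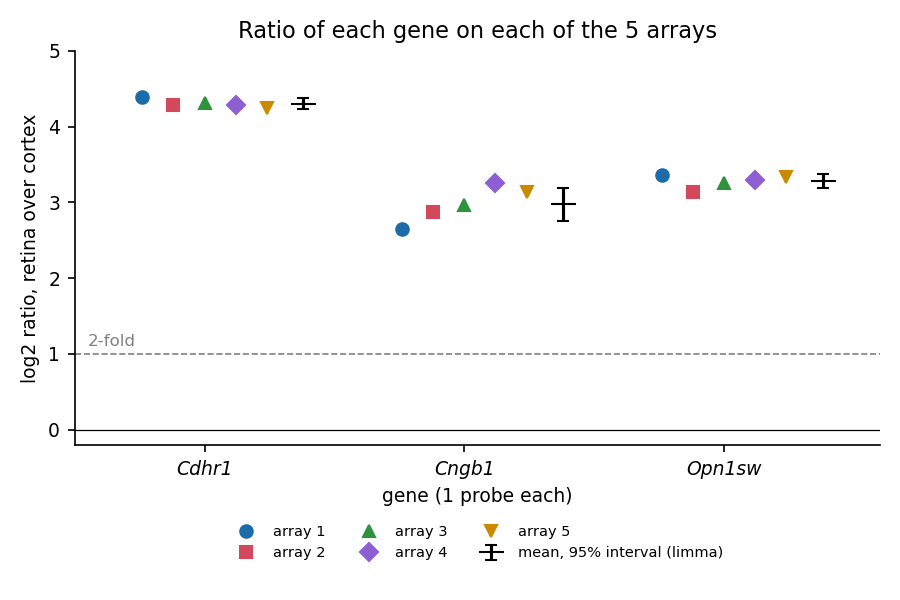
Log2 ratio of retina over cortex for each gene on each of the 5 arrays (symbols, 1 per array), with the mean and its 95% interval from limma in black. All 15 values lie above the dashed line at 2-fold, Cdhr1 is highest on every array, and Cngb1 has the widest spread of the ratios as deposited.

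All 3 probes passed the 2-fold test on the higher side, against 2.08% of the 20282 probes tested, of which 421 passed on that side. The genes had been chosen with earlier results of these arrays known, so this count is a description. At the level of genes, 246 of 8798 (2.80%) were higher and 337 (3.83%) lower in retina.

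The order of the ratios, Cdhr1 over Opn1sw over Cngb1, was the same on all 5 arrays, but its last step was small. Within an array, Cdhr1 exceeded Opn1sw by 1.03, 1.14, 1.05, 1.00 and 0.90 log2, a mean of 1.02 ± 0.09 (SD, n = 5), so that its ratio was 2.03 times as large. Cdhr1 exceeded Cngb1 by 1.33 ± 0.28, or 2.51 times. Both differences exceeded their SD between arrays and had the same sign on 5 of 5 arrays. Opn1sw exceeded Cngb1 by 0.71, 0.28, 0.30, 0.05 and 0.21 log2, a mean of 0.31 ± 0.24 that was close to its own spread, and without array 1 the mean was 0.21. In a two-sided exact sign-flip permutation test over arrays, each of the 3 pairs gave p = 0.0625 (0.0625 after Benjamini-Hochberg adjustment over the 3 pairs), the smallest p that 5 arrays allow. Different probes can compress a ratio to different degrees, so that a difference between genes can hold a difference between probes.

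On the ratios as deposited, the SD of Cngb1 between arrays lay at percentile 91.7 of the 421 probes higher in retina, whose median SD was 0.095 log2. Opn1sw lay at percentile 46.3 and Cdhr1 at percentile 18.3 of the same probes. The order turned with the scaling. With arrays scaled to the same median absolute value, the SD was 0.58 for Cdhr1, 0.45 for Opn1sw and 0.34 for Cngb1. That scaling multiplies all log2 ratios of an array by the same factor, which moves a large ratio farther than a small one. The order of these SDs thus follows in part from the order of the mean ratios. With quantile normalization it was 0.61 for Cdhr1, 0.27 for Cngb1 and 0.11 for Opn1sw. This method gives a probe that ranks first on an array the mean of the highest readings of all arrays. Those include the readings of 6.64 log2 on array 1 and 6.19 on array 3 that did not recur. The part of such readings in the SD of Cdhr1 was not tested. On the linear scale of the ratios as deposited, the coefficient of variation of the fold was 15.9% for Cngb1, 5.88% for Opn1sw and 3.80% for Cdhr1.

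**Figure D2:**
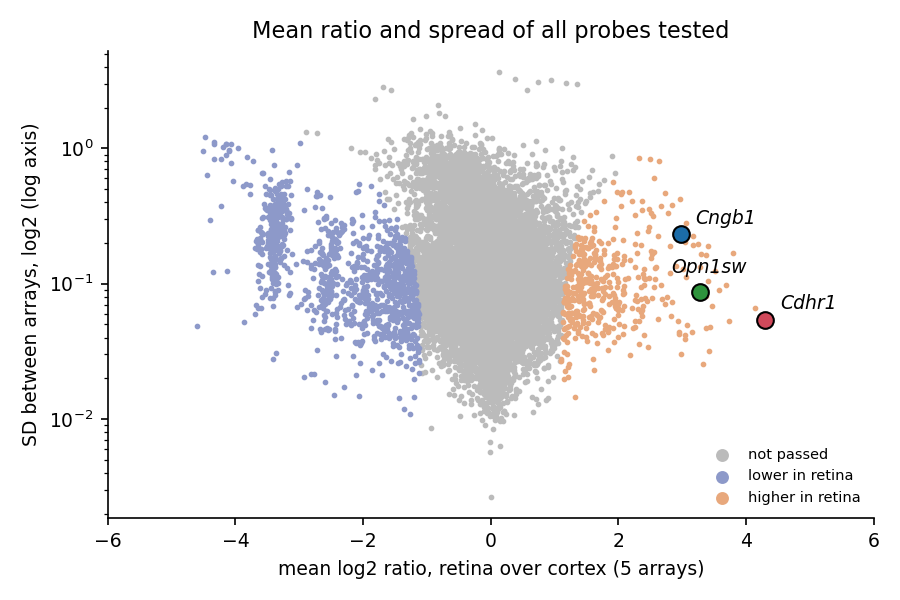
Mean log2 ratio (x axis) and SD between the 5 arrays on a log axis (y axis) for the 20282 probes tested, coloured by the outcome of the 2-fold test. Cdhr1 is the rightmost probe, with an SD of 0.05, and Cngb1, with an SD of 0.23, lies above most probes that were higher in retina.

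On the ratios as deposited, the genes did not all deviate together on arrays 1 and 4. From its own mean, Cngb1 deviated by -0.32 log2 on array 1 and by 0.28 on array 4. Cdhr1 deviated by 0.09 and -0.01 and Opn1sw by 0.08 and 0.02 on these 2 arrays. Array 1, the lowest for Cngb1, was therefore the highest for both other genes. The array with the most exact 0 values was array 4, with 1068, against 174 to 406 on the other arrays, and its part in these deviations was not tested. With arrays scaled to the same median absolute value, the difference Cdhr1 minus Opn1sw had an SD of 0.15. The SD there was 0.58 for Cdhr1 and 0.45 for Opn1sw. That scaling multiplies all log2 ratios of an array by the same factor, so large ratios move together by construction.

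The median deviation of probes with nearby numbers, those within 50 numbers on each side, was read beside each gene. For Cngb1, the median of 95 such probes stayed between -0.03 and 0.03 log2 on every array, while Cngb1 had a range of 0.60 log2. A median cannot show the ranges of single nearby probes, which were not examined. For Opn1sw, the lowest array, array 2, had a deviation of -0.14, and the median of 94 nearby probes was -0.11. On array 3 they differed in sign, at -0.02 for Opn1sw and 0.09 for the nearby probes. For Cdhr1, the deviation of 0.09 on array 1 went with a median of -0.05 over 88 nearby probes. Whether nearby numbers are adjacent on the slide was not given in the sources used here.

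**Figure D3:**
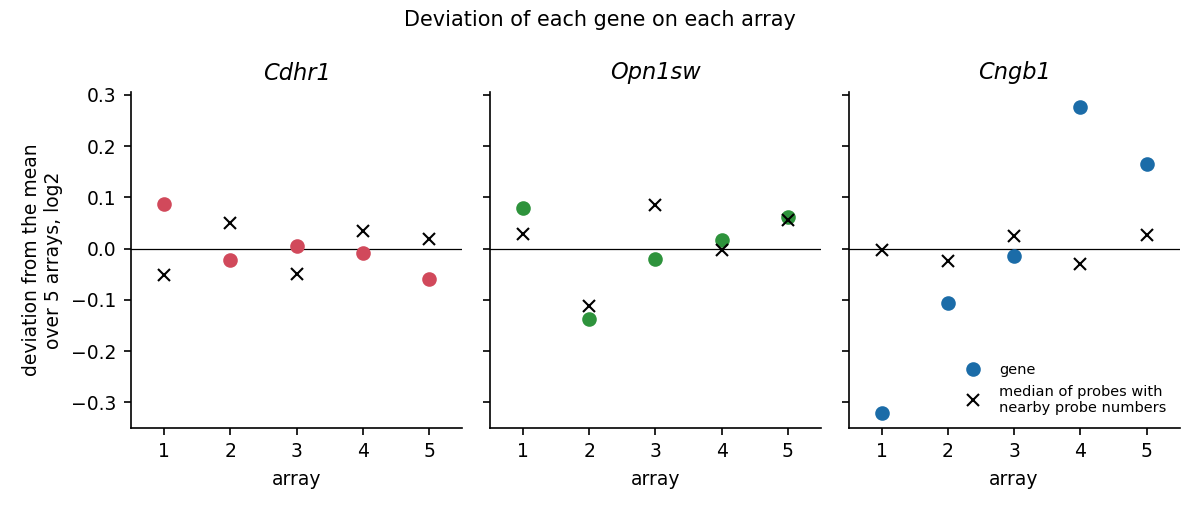
Deviation from the mean over 5 arrays (log2) of each gene (filled circles) and the median deviation of probes within 50 probe numbers (crosses), by array. Cngb1 runs from -0.32 to 0.28 while the median of the probes near it stays between -0.03 and 0.03, and Opn1sw and the median of its neighbours are both low on array 2.

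Neighbours in rank were taken as the 3 annotated genes directly above and below each member by mean log2 ratio. Below Cdhr1, which had none above, came the carbonic anhydrase Car2 at 4.14 ± 0.07, the hexokinase Hk2 at 3.80 ± 0.17 and the inward rectifier potassium channel Kcnj14 at 3.74 ± 0.05. All 3 were below Cdhr1 on 5 of 5 arrays, so its first place did not rest on a single array.

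Around Opn1sw stood the histone gene H2bc4 at 3.37, the CDP-diacylglycerol synthase Cds1 at 3.32 and the nuclear receptor Esrrb at 3.31 above it, and the RING finger gene Rnf207 at 3.27, the BMP signal transducer Smad9 at 3.17 and the membrane-curving protein Pacsin2 at 3.08 below it. Histone genes are near-identical, and the H2bc4 probe may not tell them apart. Esrrb has another probe that lacks a value on array 4 and averaged 0.29 on the remaining arrays, and with both probes read without array 4 the gene stood at 1.78. Of these 6 genes, Pacsin2 alone lay on the same side of Opn1sw on all 5 arrays, so the rank of Opn1sw is exact to a few places only.

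Cngb1 stood among the GTPase-activating protein Arhgap24 at 3.05, the G protein signalling modulator Gpsm2 at 3.02 and the eye transcription factor Pax6 at 2.99 above it, and BC034090 at 2.97, the kinase Mak at 2.95 and the lysosomal membrane protein Laptm4b at 2.93 below it. Each of the 6 was above Cngb1 on either 2 or 3 of 5 arrays, so none of them lay on the same side of it throughout.

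Few other genes of phototransduction were measured. Of 21 rod phototransduction genes listed, 2 had a probe with a value on all arrays. These were Cngb1 and Gnb1, the beta subunit of transducin, which also serves other G proteins in many cells. Gnb1 read 2.06, 2.08, 2.28, 2.12 and 2.24 log2 on arrays 1 to 5. With 2 probes at 1.95 and 2.36, it averaged 2.15 ± 0.10, or 4.45-fold higher in retina (adjusted p of limma's 2-fold test 3.49e-06). Its ratio was below that of Cngb1 on all 5 arrays. Of 13 cone genes listed and of 8 opsins listed, Opn1sw alone was measured. The genes of 9074 of the 21446 probes are not in the annotation table, and some of these may read other members of the cascade.

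The list of disc and outer segment membrane genes, to which Cdhr1 belongs, was better covered. Of 27 listed, 7 were measured, 4 were higher in retina and none was lower, with a median of 1.54 log2. Over all 8798 genes, 2.80% were higher and the median was -0.0048. The count and median of the list include Cdhr1, which was chosen with earlier results known. After Cdhr1 came Mak, a kinase of the photoreceptor cilium, with 2.97, 2.88, 2.93, 2.97 and 2.99 on arrays 1 to 5, a mean of 2.95 ± 0.04. Prom1, a protein of membrane protrusions that is known to bind Cdhr1 at the base of the outer segment, read 2.57, 2.57, 2.62, 2.24 and 2.58, with array 4 apart from the rest. It averaged 2.52 ± 0.15, or 5.72-fold, and Cdhr1 exceeded it by 1.79 log2 in the mean. Mfge8, a secreted protein that helps phagocytes bind membranes, stood at 1.54 ± 0.09.

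The other 3 of the list act in carrying lipid-modified proteins to the outer segment, and none passed. The small GTPase Arl3 was at 1.01 ± 0.08 and Pde6d, which binds prenylated proteins, at 0.80 ± 0.04, both above 0 on every array and close to the 2-fold minimum or below it. Rp2, which acts on Arl3, stood at -0.39 ± 0.39, with -0.88 on array 4 and -0.76 on array 5 and between -0.14 and -0.08 on the others.

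The connecting cilium is the passage of outer segment proteins from the cell body. Of its 46 genes listed, 15 were measured and 0 passed limma's 2-fold test in either direction, as none did at an unadjusted p below 0.05, beside 2.80% of all genes higher and 3.83% lower. With 15 genes, a count of 0 is near these shares. Their median was 0.06 log2 and their range -0.63 to 0.62. The intraflagellar transport genes Ift172, at 0.62 ± 0.09, and Ift80, at 0.51 ± 0.02, and the kinesin subunit Kif3a, at -0.63 ± 0.03, lay farthest from 0. These genes serve cilia in many cell types, cortex included.

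Of the measured relatives of Cdhr1 and Cngb1 by protein family, Clstn1 alone was higher in retina, beside 2.80% of all genes higher and 3.83% lower. The relatives measured were too few to set their count apart from these shares. In the list of cyclic nucleotide gated and related channels, 3 of 21 genes were measured, and besides Cngb1 the potassium channels Kcnh3 at -0.05 ± 0.06 and Kcnh1 at -0.30 ± 0.28 did not pass. In the cadherin list 8 of 19 were measured. Clstn1, a calsyntenin of neurons, stood at 1.85 ± 0.13, while the giant cadherins Fat1, at -1.38 ± 0.09, and Dchs1, at -1.32 ± 0.15, were lower. The call of Dchs1 was lost without array 5 (adjusted p of limma 0.0526), without arrays 1 and 4 (0.186), with arrays scaled to the same spread (0.0656) and with quantile normalization (0.0850). The remaining 4 genes of the list did not pass. These were the cadherin-related genes Cdhr4, at 0.31 ± 0.14, and Cdhr5, at 0.18 ± 0.09, and the large cadherins Celsr2 (-0.31 ± 0.05, probes from -0.92 to 0.30) and Fat3 (-0.34 ± 0.10).

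Of the transcription factors that direct photoreceptor genes, 7 of 16 were measured and 4 were higher, beside 2.80% of all genes: Otx2 at 3.42 ± 0.03, Esrrb at 3.31 ± 0.09, Neurod1 at 2.78 ± 0.33 and the orphan nuclear receptor Rorb at 1.72 ± 0.11. The value of Esrrb rests on 1 probe. With both of its probes read without array 4, the gene stood at 1.78 and still passed. Neurod1 read 2.42, 2.48, 2.82, 2.98 and 3.20 on arrays 1 to 5, a spread wider than that of Cngb1. Bhlhe40 (0.41 ± 0.26), Casz1 (0.14 ± 0.31) and Rxrg (-0.29 ± 0.17) did not pass. Neither retinoid cycle gene of the 2 measured of 19 listed passed, also at an unadjusted p below 0.05, Rdh11 at 0.08 ± 0.04 and Stra6 at 0.03 ± 0.01. Among 40 other genes of inherited photoreceptor degeneration, 26 were measured and 1 was higher, the hexokinase Hk1 at 1.60 ± 0.03, with a median of 0.19. This share of 3.85% is near the 2.80% of all genes. The splicing factor gene Prpf3 (0.57 ± 0.08), the RNA helicase gene Dhx38 (0.51 ± 0.04) and Klhl7 (-0.72 ± 0.06) were the farthest from 0 of those that did not pass. The value of Klhl7 averages probes that disagree, at -1.41 and -0.04.

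**Figure D4:**
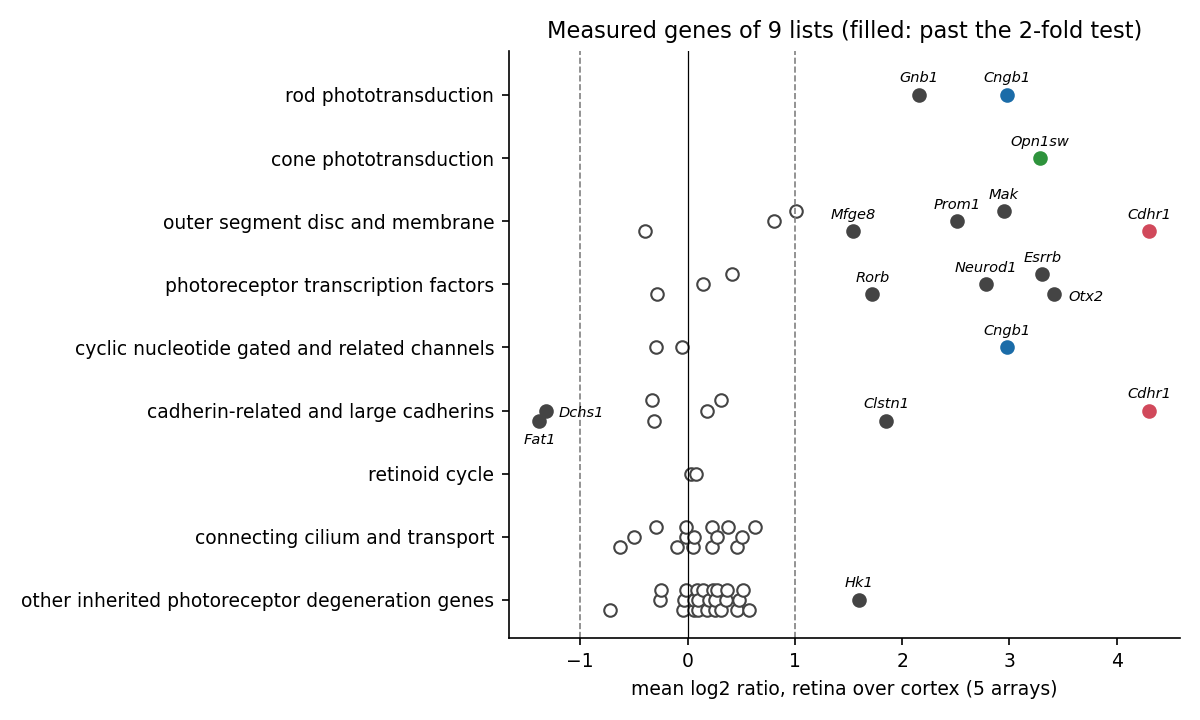
Mean log2 ratio of retina over cortex of each measured gene in 9 lists, 1 list a row, with filled circles for genes past the 2-fold test and dashed lines at 2-fold in each direction. Cdhr1, Opn1sw and Cngb1 are coloured, and the 15 cilium genes all lie between -0.63 and 0.62.

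The tissues could be checked against few markers. Of 12 rod markers only Cngb1 was measured, and of 11 cone markers Opn1sw and Rxrg. Among markers of other retinal cells, 1 of 2 measured was higher in retina for bipolar cells, 2 of 5 for Müller glia and 2 of 3 for ganglion cells. Over all genes, 2.80% were higher and 3.83% lower. The highest of each group, named after their values were seen, were Gng13 at 3.37 log2, Dkk3 at 2.69 and Sncg at 1.87. Grik1 (0.16) of bipolar cells, Apoe (0.77), Glul (0.71) and Vim (0.04) of Müller glia and Rbpms (0.19) of ganglion cells did not pass. Among 4 measured markers of cortical projection neurons, Neurod6 at -2.69 and Bcl11b at -1.47 (probes at -2.06 and -0.89) were lower. Neurod2 (-0.42) and Cux1 (-0.48) did not pass, and none was higher. Of 14 markers of the pigment epithelium, which adjoins the outer segments, 3 were measured: Ttr was lower at -1.40, and Mertk (0.36) and Stra6 (0.03) did not pass. The part of other cell types in the ratios of the 3 genes was not tested.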

How the data were processed

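Each of the 5 arrays gave 1 column of deposited log10 ratios, read as retina over cortex. Base and direction are not stated in the labels. The values end at 2 and -2, and the column medians were 0 on arrays 1 to 4 and -7.32e-05 on array 5. Background correction, dye normalization, centring method and scanner software are not given in these sources, and signal over background is unknown. The number of arrays limits the precision.

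Multiplication by 3.32 converted them to log2 ratios, and an exact 0 was read as no value. The 20282 probes with a value on all 5 arrays entered limma 3.58.1 (R 4.3.3), with an intercept per probe, treat against 2-fold, two-sided, and Benjamini-Hochberg adjustment over all of them at 0.05. For the lists, probes of a gene were averaged (8798 genes) and fitted alike. Of 21446 probes, 11813 had 1 gene symbol, 559 several and 9074 were not listed. Symbols were updated through a RefSeq table of GRCm38.p6. On simulated ratios for this comparison with 20282 probes, 88% of changed probes were recovered at a log2 size of 1.5 and 98% at 3.

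The members and lists were chosen with earlier results of these data known. All member probes, the 3 genes above and below each, and from each list up to 4 genes that passed and up to 3 that did not, farthest from 0, are named. Sequences are RefSeq's, and the 3 genes all matched. Alternatives covered centring, scaling, exact 0, missing values, probes, prior, weights, minimum fold, log base, direction, position and each array left out.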

Additional observations from a re-analysis of the deposited data

Results flagged for a closer look

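A single array far from the other 4 was found for 6 of 50 measures checked, none of them a value of Cdhr1, Cngb1 or Opn1sw or a difference between them. Chance gives about 5% of such measures. Prom1 read 2.24 log2 on array 4 and between 2.57 and 2.62 on the others. On array 5, Arl3 read 0.87 (1.04 to 1.07 elsewhere), Casz1 -0.41 (0.23 to 0.34), Rxrg -0.58 (-0.27 to -0.17), Pacsin2 2.99 (3.08 to 3.11) and Smad9 2.83 (3.20 to 3.33). Of the 6, the deviating value was the lowest of the gene in every case.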

How the results depend on the processing

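Under the 17 alternatives that kept the log base, the direction and the minimum fold, the log2 ratio ran from 4.24 to 4.76 for Cdhr1, from 2.90 to 3.05 for Cngb1 and from 3.25 to 3.42 for Opn1sw, and all 3 passed limma's 2-fold test, with adjusted p up to 0.000867. The alternatives on exact 0, missing values, choice of probes and prior could not change these ratios, as each gene had 1 probe with a value on every array. With each array omitted in turn, the values were 4.28 to 4.32 for Cdhr1, 2.90 to 3.05 for Cngb1 and 3.26 to 3.32 for Opn1sw, and 1427 to 1513 probes past the 2-fold test. Over the 11 alternatives of this kind run for the differences between genes, the difference ran from 0.21 without array 1 to 0.52 with the running median of nearby probe numbers subtracted for Opn1sw minus Cngb1, from 0.82 with that running median to 1.49 with quantile normalization for Cdhr1 minus Opn1sw, and from 1.23 without array 1 to 1.77 with quantile normalization for Cdhr1 minus Cngb1. When arrays were scaled to the same median absolute value, the SD of Cdhr1 was 0.58, of Opn1sw 0.45 and of Cngb1 0.34. A common factor per array moves large log2 ratios farther than small ones. With quantile normalization that of Cdhr1 was 0.61 and of Cngb1 0.27, so that Cngb1 had the widest spread under neither. The mean of 4.76 for Cdhr1 also came from quantile normalization, which lets the highest readings of other arrays enter its value. The SD of Cdhr1 was 0.03 without array 1, that of Cngb1 0.14 without arrays 1 and 4, and that of Opn1sw 0.05 without array 2.

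The calls of Cngb1 and Opn1sw rest on the log base. Read as log2, they stood at 0.90 and 0.99 and fell below the test, Cdhr1 at 1.30 still passed (adjusted p of limma 0.000466), while 8 probes passed, 3 of them higher. With all signs turned, Cdhr1 stood at -4.30, Cngb1 at -2.97 and Opn1sw at -3.28, the differences at -1.33, -1.02 and -0.31, and 1116 probes would be called higher in retina. By construction, probes with 1 symbol gave 779 calls (8257 against 0) and genes 583, of them 246 higher (6481 against 0), a minimum of 1.5-fold 3050 and 1070 higher, and one of 4-fold 632 and 88 higher. Of 880 alternative values of 44 other named genes, 843 kept their side of the test, 34 fell below it and 3 rose past it. Those that fell did so with values read as log2 or with the 4-fold minimum, and Dchs1 alone also under other settings. The 3 that rose did so with the minimum of 1.5-fold. These counts thus depend mostly on the log base and the minimum fold chosen. No paired analysis was possible because all arrays form 1 group, with no second group whose replicate numbers could be matched, and each value is already a ratio within its array.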
